A study of Mus musculus with 12 samples.

Results

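Extracellular matrix genes and the genes that mark mesenchymal cells were followed in 4T1 cells, a mammary carcinoma line of the BALB/c mouse, after loss of Cop1 and after interferon gamma (IFNγ). The set holds 40 genes, taken by symbol from a list of matrix and mesenchymal genes drawn up with earlier results of these data known, of the 22298 genes in the deposited count table. It comprises 5 fibrillar collagen genes, 7 other collagen genes, 9 matrix glycoprotein genes, 5 laminin chain genes, 3 genes of crosslinking enzymes, 5 genes of transcription factors of the epithelial-mesenchymal transition (EMT), 4 mesenchymal marker genes and 2 genes of protease inhibitors. All 40 had a row in the table, and 30 had enough counts to be tested.

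Cop1 encodes a ubiquitin ligase that marks other proteins, transcription factors among them, for degradation. Each library was made from total RNA of a culture with a guide RNA against Rosa26, a control locus, or with 1 of 2 guide RNAs against Cop1, here called Cop1_sgRNA1 and Cop1_sgRNA2. Each of these 3 populations was given vehicle, or was kept for 24 hours with 20 ng/ml of IFNγ, and each of the 6 groups had 2 libraries. The labels give neither where the guides cut nor whether a population was a pool or a clone. They also do not say that the libraries of a group came from separate cultures, so the spread that the p-values rest on may be technical.

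The basement membrane under epithelial cells is a sheet of type IV collagen and laminin, to which linker glycoproteins bind. The stroma beyond it holds fibrillar collagens of types I, III and V with fibronectin, and is made mainly by fibroblasts. Carcinoma cells that pass through EMT gain vimentin, N-cadherin and stromal matrix proteins under factors of the Snail, Zeb and Twist families. IFNγ is a cytokine of T cells and natural killer cells, known above all for its effect on antigen presentation genes.

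The libraries held between 19378070 and 32609717 gene counts. Cop1 measured 89.7 and 98.2 CPM in the Rosa26 libraries, 59.1 and 63.1 in those of Cop1_sgRNA1 and 34.5 and 34.7 in those of Cop1_sgRNA2, and with IFNγ 80.4 and 83.3 CPM in the Rosa26 libraries, 60.7 and 60.2 in those of Cop1_sgRNA1 and 32.3 and 33.6 in those of Cop1_sgRNA2 (CPM, counts scaled to a common library total). Cop1 RNA was thus lower in every Cop1-targeted library than in every Rosa26 library of the same treatment, and lower with Cop1_sgRNA2 than with Cop1_sgRNA1. RNA was still counted in all of them, and COP1 protein was not measured here. The 9 epithelial markers were all expressed, with a summed level between 3063 and 4200 CPM per library. Of 6 fibroblast markers 1 (Pdgfra) had enough counts to be tested, and the 6 together came to 15.4 to 23.5 CPM. Thy1, another gene of the fibroblast list, was at 0 in every library, and the endothelial and leukocyte lists summed to at most 0.940 and 1.26 CPM.

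The matrix that these cells transcribed was one of basement membrane and fibronectin, with hardly any type I or type III collagen. Levels of different genes are compared here per length, as CPM per kilobase of exon in Rosa26 cells with vehicle. The highest was Vim, the intermediate filament vimentin, at 527, followed by Fn1, fibronectin, at 233. Next came the type IV collagen chain Col4a1 at 88.95, the laminin chain Lamb1 at 64.4 and the second type IV chain Col4a2 at 56.97. Thbs1, the adhesive glycoprotein thrombospondin 1, stood at 56.1 and Timp1, an inhibitor of matrix metalloproteinases, at 49.9. Among the EMT factors Twist1 stood at 27.97 and Snai1 at 11.9, whereas Zeb2 was at 1.87 and Zeb1 at 0.0814. The length used is that of all annotated exons of a gene together, 19942 bases for Zeb2 and 1628 for Twist1. It can exceed the transcript that the cells make. Before division by length, Zeb2 had 36.5 and 38.2 CPM and Twist1 45.3 and 45.8 CPM in the same libraries.

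**Figure D1:**
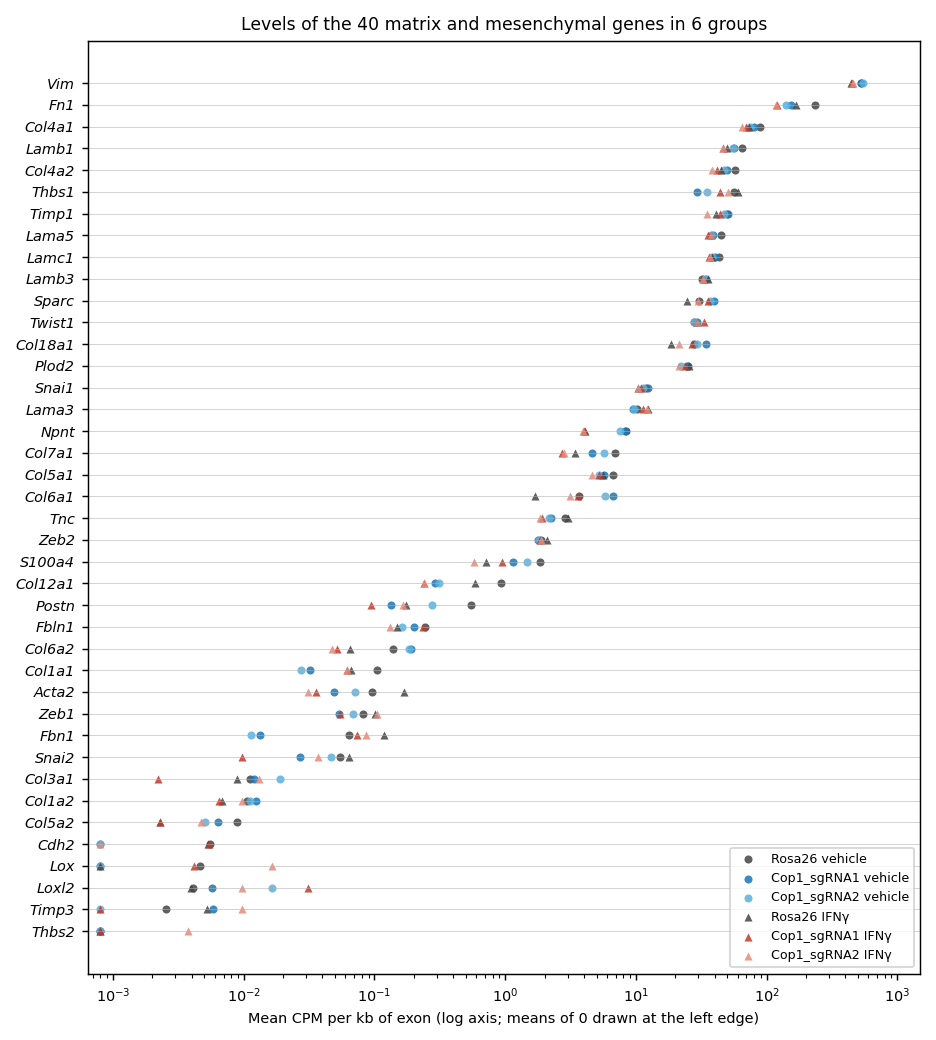
Mean CPM per kilobase of exon, on a log axis, of each of the 40 genes in the 6 groups, ordered by level, with circles for vehicle and triangles for IFNγ; means of 0 are drawn at the left edge. Vim and Fn1 stand at the top (527 and 233 in Rosa26 cells with vehicle), and Thbs2 and Timp3 at the bottom.

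Near-silent genes made up 11 of the 40, with a mean under 1 CPM in each of the 6 groups. Of these, 10 failed the count filter, with no library above 10 counts. These were Col1a2 and Col3a1 (chains of the type I and type III fibrils), Col5a2, Thbs2, the lysyl oxidases Lox and Loxl2, the EMT factor Snai2, Cdh2 (N-cadherin), Acta2 (smooth muscle actin) and Timp3. Thbs2 had 1 count over the 12 libraries, Lox 5, Cdh2 6 and Timp3 8. No change of these genes was detectable at this depth. The 3 counts that a count of 0 allows correspond to 0.0920 to 0.155 CPM, depending on the library.

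The other near-silent gene, Col1a1, which encodes the main chain of type I collagen, passed the filter on 3 to 17 counts per library. Another 5 genes peaked between 1 and 2 CPM, namely Col6a2, Fbln1, Fbn1, Zeb1 and S100a4. Where library values of those 6 genes are given, they are counts in place of CPM. The remaining 24 genes reached more than 4 CPM in at least 1 group.

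The type IV chain genes Col4a1 (chromosome 8, 11198423 to 11312826, minus strand) and Col4a2 (chromosome 8, 11312805 to 11449287, plus strand) lie head to head in GRCm38, positions being those of GENCODE M21. They are shown first because they are the most abundant collagen transcripts here and share their start region. In the RefSeq promoter windows of GRCm38.p6 the first base of Col4a1 is at 11312826 on the minus strand and that of Col4a2 at 11312805 on the plus strand. The annotated starts thus overlap by 22 bases, at chr8:11312805-11312826, printed on the plus strand.
Col4a1 and Col4a2 shared start: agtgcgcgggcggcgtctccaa
Both genes fell in each of the 4 comparisons described below. Col4a1 changed by -0.21 and -0.11 with Cop1 loss in vehicle and in IFNγ, and Col4a2 by -0.24 and -0.17 on the log2 scale. With IFNγ, Col4a1 changed by -0.29 in Rosa26 cells and -0.19 in Cop1-targeted cells, and Col4a2 by -0.34 and -0.27. All 8 passed the test (adjusted p of at most 0.000894 in edgeR's quasi-likelihood test). Without the Rosa26 IFNγ library of replicate 2, Col4a1 lost its call for Cop1 loss under IFNγ (adjusted p = 0.182). With Cop1_sgRNA1 alone it was not called there either, at -0.07 (adjusted p = 0.0891 in the same test).

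The first comparison asked how the transcriptome differs with Cop1 loss when no cytokine is added. In vehicle, 20 of the 30 tested genes differed between the 4 Cop1-targeted and the 2 Rosa26 libraries, 16 lower and 4 higher, against 35.8% of all 11904 genes tested (19.2% lower and 16.6% higher). Their median log2 change was -0.22, beside -0.01 over all genes. Most of the changes were small: 4 of the 30 reached 2-fold, all lower, against 2.29% of all genes. Against Rosa26 in vehicle, Cop1_sgRNA1 alone gave 19 calls (33.4% of all genes) and Cop1_sgRNA2 alone 17 (29.2% of all genes). These comparisons share their Rosa26 libraries. In bulk RNA, fewer cells that express a gene and less of its RNA per cell cannot be told apart.

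Among the glycoproteins, 5 of 8 tested genes were lower and 1 higher, with a median of -0.55. Fn1 (chromosome 1, 71585520 to 71653200, minus strand), which cells assemble into fibrils bound by integrins, had 2668 and 2774 CPM in the Rosa26 libraries, 1708 and 1870.1 in those of Cop1_sgRNA1 and 1709 and 1573 in those of Cop1_sgRNA2. Every Cop1-targeted library thus lay below both Rosa26 libraries, and Fn1 fell by 0.67 ± 0.04 (standard error) on the log2 scale, or 1.59-fold (adjusted p = 6.35e-06). Thbs1 (chromosome 2, 118111876 to 118127133, plus strand) had 341 and 340.4 CPM in the Rosa26 libraries, 177 and 177 in those of Cop1_sgRNA1 and 204 and 223 in those of Cop1_sgRNA2. The Thbs1 groups did not overlap, the fall was 0.81 ± 0.03 on the log2 scale (adjusted p = 7.74e-25), and the Cop1_sgRNA2 libraries lay nearer to Rosa26 than those of Cop1_sgRNA1.

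Periostin, encoded by Postn (chromosome 3, 54361109 to 54391037, plus strand), binds fibronectin and collagen in stroma and was low throughout. It had 4.74 and 4.76 CPM in the Rosa26 libraries, 1.26 and 1.08 in those of Cop1_sgRNA1 and 2.35 and 2.47 in those of Cop1_sgRNA2. Its groups were apart and it fell by 1.49 ± 0.24 on the log2 scale (adjusted p = 3.99e-06). Tnc, which encodes the anti-adhesive glycoprotein tenascin C, had 21.1 and 23.4 CPM in the Rosa26 libraries, 16.1 and 18.6 in those of Cop1_sgRNA1 and 15.9 and 17.96 in those of Cop1_sgRNA2. The lowest Rosa26 library exceeded the highest Cop1-targeted library, and Tnc fell by 0.38 ± 0.09 (adjusted p = 0.000858), a call that was lost without the Rosa26 library of replicate 2 (adjusted p = 0.0523).

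Sparc moved the other way. This gene of a collagen-binding matricellular protein had 120.3 and 109 CPM in the Rosa26 libraries, 151 and 151 in those of Cop1_sgRNA1 and 141 and 136 in those of Cop1_sgRNA2. All 4 Cop1-targeted libraries were higher than both Rosa26 libraries, with a rise of 0.33 ± 0.04 on the log2 scale (adjusted p = 3.44e-09). Fbn1, which encodes the microfibril protein fibrillin 1, had 18 and 18 counts in the Rosa26 libraries, 6 and 3 in those of Cop1_sgRNA1 and 3 and 3 in those of Cop1_sgRNA2, the fitted change being -2.32 ± 0.53 (adjusted p = 0.000507). These Fbn1 counts are small, and 20.1% of its exon length is also covered by Gm9913 on the opposite strand; whether reads were counted by strand is not given in the sources used here. The other glycoproteins were not called: Npnt, the integrin ligand nephronectin, changed by -0.07 ± 0.06 and Fbln1, the elastic fibre protein fibulin 1, by -0.44 ± 0.42.

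Of the 7 non-fibrillar and fibril-associated collagen genes, 4 fell and 2 rose. Col12a1 (chromosome 9, 79598991 to 79718831, minus strand), whose product binds the surface of type I fibrils, had 13.8 and 14.4 CPM in the Rosa26 libraries, 4.35 and 4.56 in those of Cop1_sgRNA1 and 5.14 and 4.34 in those of Cop1_sgRNA2. This was the largest change among genes with a mean of at least 2 CPM, a 3.07-fold fall (-1.62 ± 0.13 on the log2 scale, adjusted p = 2.5e-13). Col7a1, the anchoring fibril collagen that ties epithelium to stroma, had 68.7 and 72.5 CPM in the Rosa26 libraries, 43.9 and 50.9 in those of Cop1_sgRNA1 and 56.04 and 60.3 in those of Cop1_sgRNA2. The groups were again apart, with a fall of 0.43 ± 0.06 on the log2 scale (adjusted p = 1.06e-07).

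Col6a1 (chromosome 10, 76708792 to 76726168, minus strand), a chain of the beaded-filament type VI collagen, was higher after Cop1 loss. It had 16.5 and 15.9 CPM in the Rosa26 libraries, 29.9 and 28.1 in those of Cop1_sgRNA1 and 24.03 and 26.9 in those of Cop1_sgRNA2. Each Cop1-targeted library exceeded both Rosa26 libraries, and the rise was 1.68-fold (0.75 ± 0.08 on the log2 scale, adjusted p = 1.56e-09). Its partner chain Col6a2 had 30 and 24 counts in the Rosa26 libraries, 55 and 32 in those of Cop1_sgRNA1 and 33 and 34 in those of Cop1_sgRNA2, and its change of 0.43 ± 0.35 did not pass the test (adjusted p = 0.353). Col18a1, the basement membrane collagen that carries endostatin, had 194 and 195 CPM in the Rosa26 libraries, 239 and 245 in those of Cop1_sgRNA1 and 203 and 209 in those of Cop1_sgRNA2 and rose by 0.20 ± 0.03 (adjusted p = 2.79e-06). Col18a1 was not called with Cop1_sgRNA2 alone (adjusted p = 0.0846).

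Type I collagen stayed near silence in every group. Col1a1 had 17 and 15 counts in the Rosa26 libraries, 6 and 5 in those of Cop1_sgRNA1 and 3 and 5 in those of Cop1_sgRNA2. Its fitted change of -1.80 ± 0.58 had an adjusted p of 0.0123, which rose to 0.0876 without the Rosa26 library of replicate 1 and to 0.0662 without that of replicate 2. Col5a1, a chain of type V collagen that seeds fibrils, was well expressed and fell by 0.28 ± 0.05 on the log2 scale (adjusted p = 5.81e-05).

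All 5 laminin chain genes were called, each with a change of at most 0.23 in size on the log2 scale. Lama5 changed by -0.23 ± 0.05, Lamb1 by -0.22 ± 0.02 and Lamc1 by -0.15 ± 0.03, chains of the laminins of most epithelial basement membranes. Lama3 changed by -0.09 ± 0.04 and Lamb3 by 0.09 ± 0.03, chains of laminin-332, which fastens epithelial cells to the basement membrane. The calls of Lama3 and Lamb3 were each lost on leaving out Rosa26 replicate 1 (adjusted p = 0.147 and 0.0694) or replicate 2 (adjusted p = 0.179 and 0.109). That of Lama5 was lost without Rosa26 replicate 2 (adjusted p = 0.0592).

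The tested EMT factors and mesenchymal markers were not called, while Cdh2, Acta2 and Snai2 had too few counts to be tested. Vim had 2525 and 2478 CPM in the Rosa26 libraries, 2519.9 and 2493 in those of Cop1_sgRNA1 and 2513 and 2619.9 in those of Cop1_sgRNA2. These ranges overlapped and the change was 0.02 ± 0.02 (adjusted p = 0.46). Snai1, a repressor of E-cadherin, had 18.9 and 19.7 CPM in the Rosa26 libraries, 18.3 and 21.5 in those of Cop1_sgRNA1 and 17.1 and 19.9 in those of Cop1_sgRNA2, with a change of -0.01 ± 0.09 (adjusted p = 0.933). Zeb1 had 22 and 17 counts in the Rosa26 libraries, 19 and 11 in those of Cop1_sgRNA1 and 11 and 20 in those of Cop1_sgRNA2, with a change of -0.42 ± 0.42 (adjusted p = 0.475). None of the 4 tested EMT factors (Zeb1, Zeb2, Snai1 and Twist1) and neither tested mesenchymal marker (Vim and S100a4) passed, 0 of these 6 had an unadjusted p under 0.05 in edgeR, and DESeq2 called 0. Timp1 changed by -0.03 ± 0.06, and Plod2, a lysyl hydroxylase that prepares collagen for crosslinking, by -0.10 ± 0.04 (adjusted p = 0.03, lost without either Rosa26 library at 0.0955 and 0.184). With Cop1_sgRNA1 alone Plod2 was at -0.01 ± 0.04 (adjusted p = 0.853) and with Cop1_sgRNA2 alone at -0.18 ± 0.04 (adjusted p = 0.000792).

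**Figure D2:**
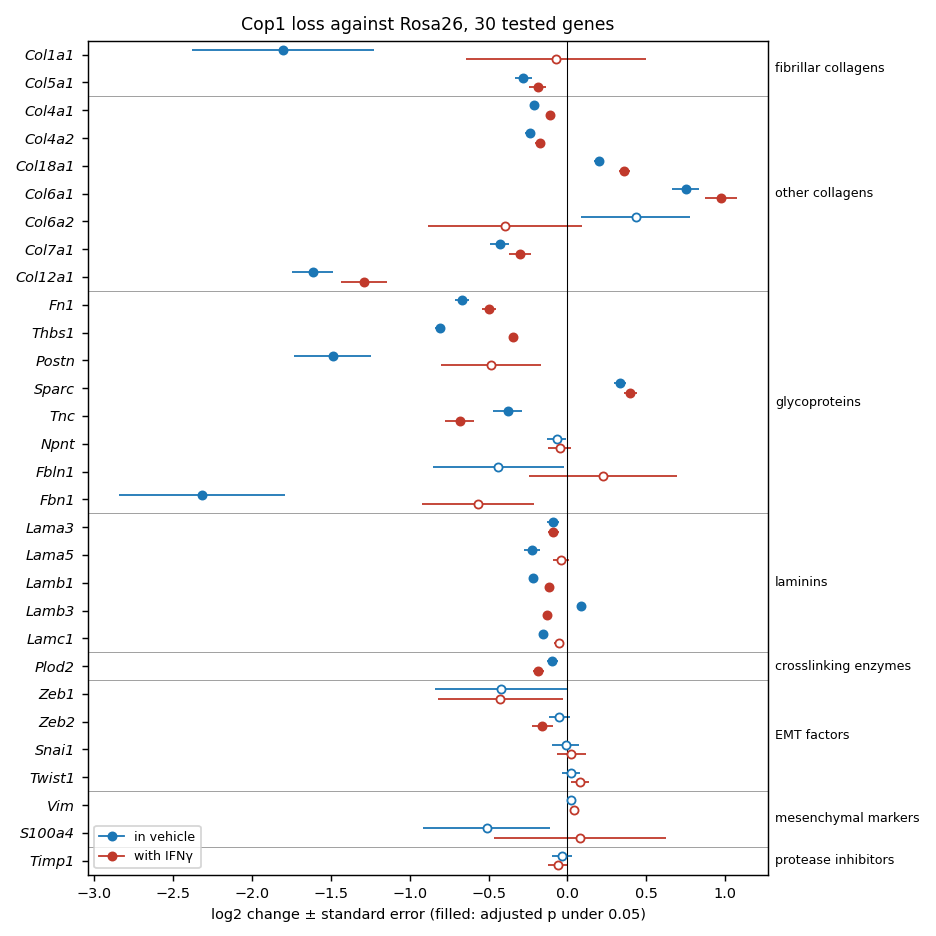
log2 change with Cop1 loss for each of the 30 tested genes, in vehicle (blue) and with IFNγ (red), with bars of 1 standard error; filled points have an adjusted p under 0.05. Col12a1 and Fn1 lie left of 0 in both conditions, Col6a1, Sparc and Col18a1 lie right of it in both, and Vim lies at 0.02 and 0.04.

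The summed epithelial markers were higher after Cop1 loss, where most called matrix genes were lower. Most of that sum came from the keratin genes Krt7, Krt8 and Krt18. Their means were 854, 1092 and 851 CPM in Rosa26 cells with vehicle. The median log2 change over the 9 genes was 0.06 in vehicle and 0.05 with IFNγ. In vehicle the sum was 3813 to 3932 CPM in Rosa26 cells, 4171 to 4200 CPM with Cop1_sgRNA1 and 4151 to 4162 CPM with Cop1_sgRNA2, 6 of the 9 genes being called, 4 higher and 2 lower. With IFNγ the same sum was 3063 CPM in both Rosa26 libraries, 3532 to 3538 CPM with Cop1_sgRNA1 and 3446 to 3502 CPM with Cop1_sgRNA2. Cdh1, which encodes E-cadherin, was lower after Cop1 loss, with 484 and 498 CPM in the Rosa26 libraries, 338 and 332 in those of Cop1_sgRNA1 and 369.7 and 371 in those of Cop1_sgRNA2 in vehicle. The fall was 0.48 ± 0.02 on the log2 scale in vehicle and 0.29 ± 0.02 with IFNγ (adjusted p = 1.55e-19 and 3.69e-13). Esrp1, another gene of the epithelial list, was also lower in vehicle. Its means were 111 CPM in Rosa26 cells, 95.2 with Cop1_sgRNA1 and 93.7 with Cop1_sgRNA2. The summed fibroblast list, nearly all of it Pdgfra, was 22.2 to 23.5 CPM in Rosa26 cells with vehicle, 19.8 to 22.4 CPM with Cop1_sgRNA1 and 16.6 to 17.8 CPM with Cop1_sgRNA2. The part of these markers in the matrix results was not tested.

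The second comparison repeated Cop1 loss in cells given IFNγ. Here 16 of the 30 genes were called, 13 lower and 3 higher, against 40.6% of all genes tested (20.7% lower and 19.8% higher). The median change was -0.11, beside -0.0045 over all genes, and 1 gene reached 2-fold, against 2.37% of all genes. Cop1_sgRNA1 alone gave 14 calls (38.2% of all genes) and Cop1_sgRNA2 alone 15 (32.9%).

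Col12a1, with 8.23 and 9.58 CPM in the Rosa26 libraries, 3.99 and 3.26 in those of Cop1_sgRNA1 and 3.48 and 3.83 in those of Cop1_sgRNA2, was the gene that passed 2-fold. Its groups did not overlap, and it fell by 1.29 ± 0.15 on the log2 scale (adjusted p = 1.22e-09). Fn1 had 1932 and 2014 CPM in the Rosa26 libraries, 1397 and 1429 in those of Cop1_sgRNA1 and 1399.6 and 1357 in those of Cop1_sgRNA2, again without overlap, and fell by 0.50 ± 0.05 (adjusted p = 3.76e-05). Tnc had 20.9 and 25.8 CPM in the Rosa26 libraries, 14.4 and 15.1 in those of Cop1_sgRNA1 and 15.1 and 13.5 in those of Cop1_sgRNA2 and fell by 0.68 ± 0.09 (adjusted p = 6.73e-08). For Tnc the spread between the Rosa26 libraries was wide, but the lower of them still exceeded all 4 Cop1-targeted libraries.

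Of the 4 genes that rose in vehicle, 3 also rose here, while Lamb3 fell by 0.13 ± 0.03 on the log2 scale (adjusted p = 0.000284). Col6a1 had 7.89 and 6.99 CPM in the Rosa26 libraries, 15.4 and 16.1 in those of Cop1_sgRNA1 and 13.1 and 14.1 in those of Cop1_sgRNA2, a rise of 0.97 ± 0.10 on the log2 scale or 1.96-fold (adjusted p = 2.37e-10). Sparc had 96.5 and 89.9 CPM in the Rosa26 libraries, 134 and 133 in those of Cop1_sgRNA1 and 111 and 114 in those of Cop1_sgRNA2, a rise of 0.40 ± 0.04 (adjusted p = 7.11e-11). Col18a1 had 126 and 135 CPM in the Rosa26 libraries, 185 and 191 in those of Cop1_sgRNA1 and 146 and 155 in those of Cop1_sgRNA2, a rise of 0.36 ± 0.03 (adjusted p = 1.17e-11). None of these 3 genes had a Cop1-targeted library as low as a Rosa26 library.

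Several genes that fell in vehicle were not called here, and the test of that difference is the interaction given further on. Postn had 1.19 and 1.85 CPM in the Rosa26 libraries, 0.948 and 0.696 in those of Cop1_sgRNA1 and 0.904 and 1.996 in those of Cop1_sgRNA2, which overlapped, with a change of -0.48 ± 0.32 (adjusted p = 0.234). Fbn1 had 31 and 35 counts in the Rosa26 libraries, 23 and 20 in those of Cop1_sgRNA1 and 25 and 18 in those of Cop1_sgRNA2 and changed by -0.57 ± 0.36. Col1a1, with 14 and 6 counts in the Rosa26 libraries, 14 and 6 in those of Cop1_sgRNA1 and 12 and 5 in those of Cop1_sgRNA2, changed by -0.07 ± 0.57 (adjusted p = 0.94). Lama5 and Lamc1 changed by -0.04 ± 0.05 and -0.06 ± 0.03.

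Among EMT factors Zeb2 was called, with a change of -0.16 ± 0.07 (adjusted p = 0.0489), but that call was lost without either Rosa26 library (adjusted p = 0.0547 and 0.373) and in DESeq2 (0.143). Zeb2 was called with neither guide alone (edgeR, adjusted p = 0.0532 and 0.179). With Cop1_sgRNA1 alone 1 of the 4 tested EMT factors was called, and it was higher, while with Cop1_sgRNA2 alone 0 were. Snai1 had 16.5 and 17.4 CPM in the Rosa26 libraries, 17.1 and 18.1 in those of Cop1_sgRNA1 and 16.3 and 17.5 in those of Cop1_sgRNA2 and changed by 0.02 ± 0.09 (adjusted p = 0.859). Zeb1 had 19 and 29 counts in the Rosa26 libraries, 16 and 11 in those of Cop1_sgRNA1 and 23 and 21 in those of Cop1_sgRNA2 and changed by -0.43 ± 0.40 (adjusted p = 0.418). Vim had 2079 and 2091 CPM in the Rosa26 libraries, 2138 and 2128 in those of Cop1_sgRNA1 and 2155 and 2178 in those of Cop1_sgRNA2, and its change of 0.04 ± 0.02 did not pass after adjustment (adjusted p = 0.0704). Without the Rosa26 IFNγ library of replicate 2, 12 of the 30 genes were called in place of 16, and 3612 of 12164 genes in all in place of 4828 of 11904.

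Another reading treats each population as 1 sample, with its libraries summed and the 2 guides standing in for replicates of Cop1 loss. Rosa26 then had 1 sample per treatment, so the spread came from the guides alone, which differed in Cop1 RNA. That fit had no guide term, so a steady difference between the guides counted as spread. In vehicle it called 7 of the 30 genes (7.27% of all genes), namely Fn1, Thbs1, Tnc, Fbn1, Col12a1, Col6a1 and Lamb1. With IFNγ it called 5 (11.7% of all genes), namely Fn1, Tnc, Sparc, Col12a1 and Col6a1. Postn missed the threshold in vehicle in that reading, at an adjusted p of 0.0638.

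**Figure D3:**
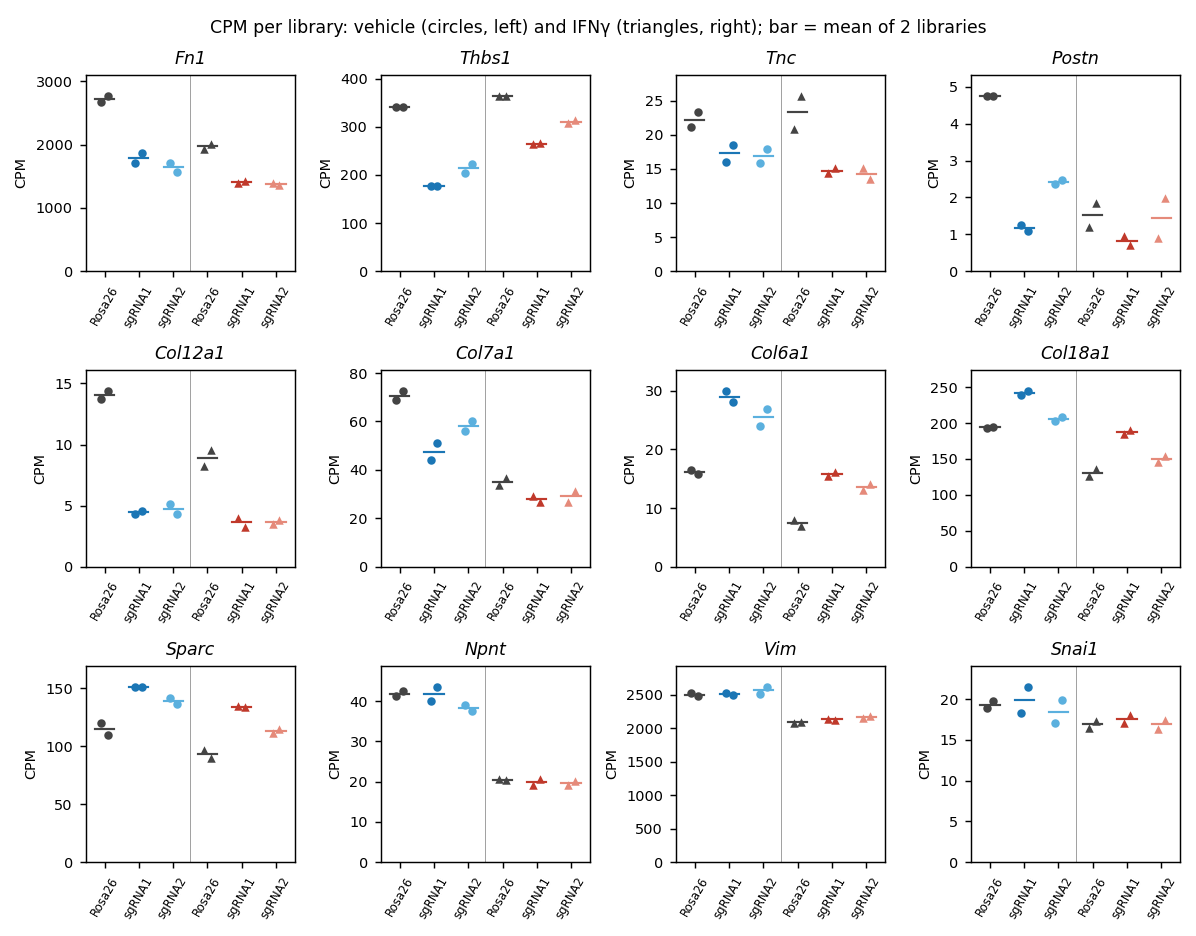
CPM in each of the 12 libraries for 12 of the genes, each panel with its own axis from 0, vehicle as circles at the left and IFNγ as triangles at the right, and a bar for the mean of the 2 libraries of a group. Fn1 and Col12a1 are highest in the Rosa26 vehicle libraries, and Col6a1 is highest in the Cop1-targeted vehicle libraries.

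The third comparison concerned the response of Rosa26 cells to IFNγ. Of the 30 genes 20 were called, 17 lower and 3 higher, against 32.8% of all genes (16.2% lower and 16.6% higher). The median change was -0.29, beside -0.01 over all genes, and 5 genes fell by 2-fold or more, against 3.66% of all genes in either direction. The decreases ran through collagens, glycoproteins, laminins, Vim and Timp1.

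Non-fibrillar collagens fell in 6 of 7 cases, with a median of -0.66. Col6a1 went from 16.5 and 15.9 to 7.89 and 6.99 CPM, a 2.17-fold fall (-1.12 ± 0.11 on the log2 scale, adjusted p = 8.42e-11). Col7a1 went from 68.7 and 72.5 to 33.9 and 36.5 CPM (-1.01 ± 0.07, adjusted p = 2.1e-15). For both genes the treated and the untreated libraries did not overlap. Col12a1 went from 13.8 and 14.4 to 8.23 and 9.58 CPM (-0.66 ± 0.15, adjusted p = 0.000401) and Col18a1 from 194 and 195 to 126 and 135 CPM (-0.57 ± 0.04, adjusted p = 2.61e-16). Col6a2 had 30 and 24 counts without and 10 and 15 with IFNγ, which did not pass (adjusted p = 0.0707).

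Among the glycoproteins, Postn went from 4.74 and 4.76 to 1.19 and 1.85 CPM, a fall of 1.64 ± 0.30 on the log2 scale (adjusted p = 2.44e-05). Npnt went from 41.3 and 42.4 to 20.6 and 20.4 CPM, a 2.04-fold fall (adjusted p = 9.47e-15), although it was not called for Cop1 loss in either condition. Fn1 went from 2668 and 2774 to 1932 and 2014 CPM, a fall of 0.46 ± 0.05 (adjusted p = 0.00021). In all 3 genes both treated libraries lay below both untreated ones. Sparc changed by -0.30 ± 0.05, while Thbs1, at 341 and 340.4 CPM without and 365 and 363 CPM with IFNγ, rose by 0.10 ± 0.03 (adjusted p = 0.0228). That Thbs1 call was lost on leaving out any 1 of the 4 libraries (adjusted p between 0.0738 and 0.0973).

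Laminin chains moved both ways. Lama5 fell by 0.24 ± 0.06, Lamb1 fell by 0.36 ± 0.03 and Lamc1 fell by 0.19 ± 0.03 on the log2 scale, whereas Lama3 and Lamb3 rose, by 0.29 ± 0.04 and 0.14 ± 0.03. The intermediate filament gene Vim went from 2525 and 2478 to 2079 and 2091 CPM, a fall of 0.26 ± 0.02 (adjusted p = 6.05e-13). Snai1 went from 18.9 and 19.7 to 16.5 and 17.4 CPM and did not pass (adjusted p = 0.165), and Zeb1 had 22 and 17 counts without and 19 and 29 with IFNγ (adjusted p = 0.646). None of the 4 EMT factors was called, with 0 at an unadjusted p under 0.05 in edgeR and 0 in DESeq2. S100a4, a calcium-binding protein gene used as a fibroblast marker, had 23 and 27 counts without and 6 and 13 with IFNγ (adjusted p = 0.0412). Its call was lost without any of 3 of the 4 libraries (adjusted p of 0.0742, 0.190 and 0.314), and 51.7% of its exon length is shared with Gm42674 on the same strand.

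Epithelial markers were lower with IFNγ too, with 7 of 9 called, each of them lower, and their part in the matrix results was not tested. Leaving out Rosa26 vehicle replicate 2 ended the IFNγ calls of Col5a1 (adjusted p = 0.0572) and Lama5 (0.0632). Col1a1 had 17 and 15 counts without and 14 and 6 with IFNγ, which was not called (adjusted p = 0.432).

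In Cop1-targeted cells IFNγ gave 20 calls among the 30 genes, 16 lower and 4 higher, against 34.2% of all genes (16.1% lower and 18.1% higher). The median was -0.21, beside -0.01 over all genes, and 3 genes passed 2-fold, Npnt and Col6a2 lower and Fbn1 higher, against 3.48% of all genes. Col6a2 went from 55 and 32 to 15 and 6 counts under Cop1_sgRNA1 and from 33 and 34 to 7 and 9 under Cop1_sgRNA2. Its groups did not overlap, and it fell by 1.92 ± 0.34 on the log2 scale (adjusted p = 1.08e-05). Npnt fell by 1.01 ± 0.06 on the log2 scale (adjusted p = 2.04e-19), with 39.96 and 43.6 CPM turning to 19.2 and 20.8 under Cop1_sgRNA1 and 38.9 and 37.6 to 19.3 and 20.2 under Cop1_sgRNA2. Col7a1 fell by 0.88 ± 0.05 and Col6a1 by 0.90 ± 0.07 (adjusted p = 9.65e-18 and 1.67e-14). Col18a1, Timp1 and Vim fell by 0.41 ± 0.03, 0.31 ± 0.05 and 0.24 ± 0.02 (Timp1 missed the threshold with Cop1_sgRNA1 alone, adjusted p = 0.0501), and Fn1 by 0.30 ± 0.04 (adjusted p = 0.000362).

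Thbs1 rose, from 177 and 177 to 264 and 265 CPM under Cop1_sgRNA1 and from 204 and 223 to 307 and 313 CPM under Cop1_sgRNA2. This is 0.56 ± 0.02 on the log2 scale, or 1.47-fold (adjusted p = 4.61e-23). All 4 treated libraries were above all 4 untreated ones. Timp1 went from 45.6 and 43.6 to 40.8 and 37.6 CPM under Cop1_sgRNA1 and from 38.7 and 44.98 to 29.6 and 32.6 CPM under Cop1_sgRNA2, without overlap within either guide. Among EMT factors Twist1 rose by 0.14 ± 0.05 (adjusted p = 0.0155), a call lost in DESeq2 (0.0633) and without Cop1_sgRNA1 vehicle replicate 1 (0.195). With Cop1_sgRNA2 alone Twist1 changed by 0.08 and was not called (edgeR, adjusted p = 0.398). Snai1 and Zeb1 changed by -0.15 ± 0.07 and 0.30 ± 0.36 and were not called. Of the 9 epithelial markers 7 were called, 6 lower and 1 higher. Lama3 rose by 0.29 ± 0.03. Fbn1 went from 6 and 3 to 23 and 20 counts under Cop1_sgRNA1 and from 3 and 3 to 25 and 18 under Cop1_sgRNA2 (adjusted p = 4.42e-06). In the summed reading 11 of the 30 genes were called (11.5% of all genes), namely Npnt, Fn1, Thbs1, Fbn1, Col4a2, Col6a1, Col6a2, Col7a1, Lama3, Lamb1 and Vim.

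**Figure D4:**
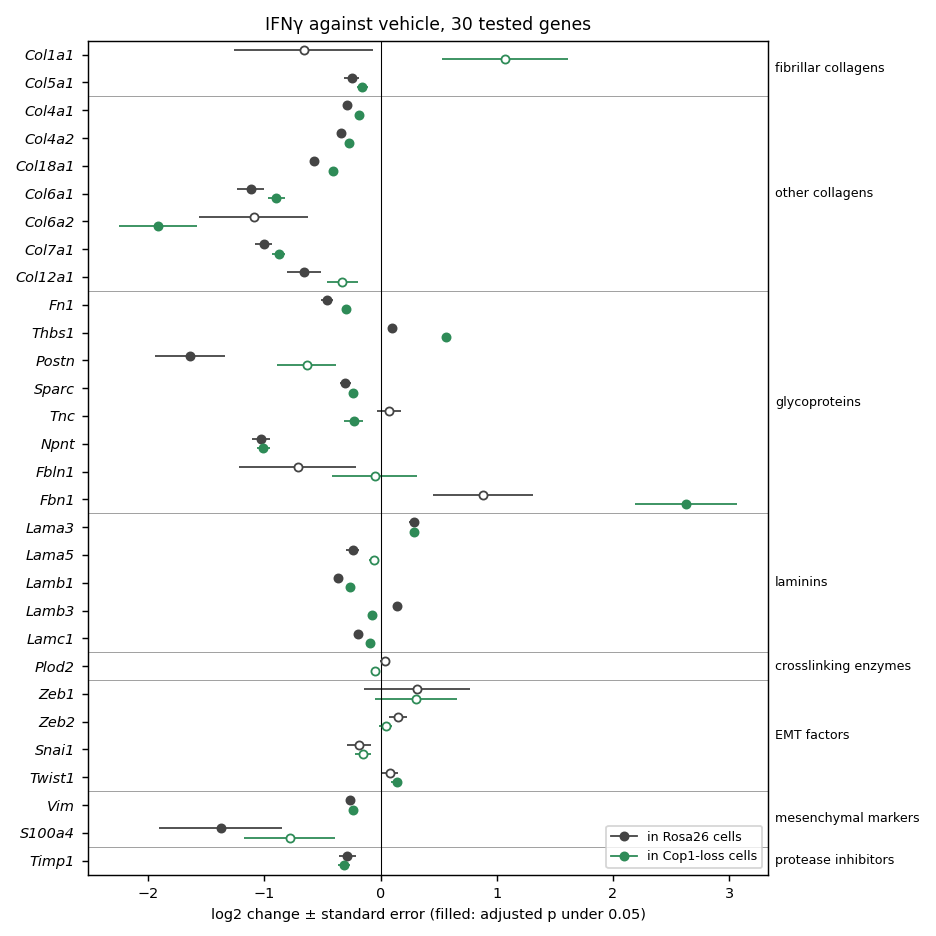
log2 change with IFNγ for each of the 30 tested genes, in Rosa26 cells and in Cop1-targeted cells, with bars of 1 standard error; filled points have an adjusted p under 0.05. Col6a1 (-1.12 and -0.90), Col7a1 (-1.01 and -0.88) and Npnt (-1.03 and -1.01) lie far left of 0 in both populations, and Thbs1 lies at 0.10 in Rosa26 and 0.56 in Cop1-targeted cells.

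The interaction tests whether the response to IFNγ differed between Cop1-targeted and Rosa26 cells. It called 3 of the 30 genes, Thbs1, Lamb3 and Col18a1, against 5.74% of all genes. Thbs1 responded by 0.46 ± 0.04 more on the log2 scale in Cop1-targeted cells (adjusted p = 5.99e-11), so that its deficit after Cop1 loss was -0.81 in vehicle and -0.34 with IFNγ. Lamb3 had 214 and 212 CPM in the Rosa26 libraries, 230.3 and 227 in those of Cop1_sgRNA1 and 220.3 and 226 in those of Cop1_sgRNA2 with vehicle. Under IFNγ it had 234 and 237 CPM in the Rosa26 libraries, 215 and 217 in those of Cop1_sgRNA1 and 213 and 216 in those of Cop1_sgRNA2, so the order of the populations turned over, a difference in response of -0.21 ± 0.04 (adjusted p = 0.000347). Col18a1 differed by 0.16 ± 0.05 (adjusted p = 0.0303), a call lost on leaving out any of several libraries, with the highest adjusted p, 0.330, without Rosa26 IFNγ replicate 1. That call was also lost in DESeq2 (adjusted p = 0.0770) and with Cop1_sgRNA2 alone (edgeR, adjusted p = 0.265). Postn and Fbn1 had larger but less certain differences, 1.01 ± 0.40 and 1.75 ± 0.64 (adjusted p = 0.146 and 0.106). The fit on summed populations had no guide term, so a steady difference between the guides counted as spread in it. Its number of calls therefore does not settle whether the responses differed. With the libraries of each population summed the interaction called 0 of the 30 and 0 of all 11904 genes, 546 of which had an unadjusted p under 0.05 in edgeR.

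The 2 guides gave different levels for some genes. In vehicle 5 of the 30 genes differed between Cop1_sgRNA2 and Cop1_sgRNA1, against 5.99% of all genes, and with IFNγ 6 did, against 9.41%. Thbs1 was higher with Cop1_sgRNA2 in both conditions, by 0.27 ± 0.04 and 0.23 ± 0.03 on the log2 scale (adjusted p = 6.36e-07 and 7.5e-06). Col18a1 was lower with Cop1_sgRNA2 in both, by 0.23 ± 0.04 and 0.32 ± 0.04 (adjusted p = 2.29e-05 and 6.34e-08). Col7a1 was higher with Cop1_sgRNA2 in vehicle, and Sparc and Timp1 were lower with it in IFNγ. Postn had a difference of 1.03 ± 0.33 in vehicle that missed the threshold (adjusted p = 0.0566).

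Summed over the 40 genes, the matrix and mesenchymal set took 0.944% ± 0.00946 (SD, n = 2) of all gene counts in Rosa26 cells with vehicle. The share was 0.792% ± 0.0198 with Cop1_sgRNA1 and 0.773% ± 0.00160 with Cop1_sgRNA2. With IFNγ it was 0.761% ± 0.0185, 0.669% ± 0.00775 and 0.666% ± 0.000816 in the same order. Fn1 made up much of the difference: it took 0.278% in Rosa26 cells with vehicle and 0.179% and 0.165% in the Cop1-targeted populations. Without Fn1 the vehicle shares were 0.666%, 0.613% and 0.608%, and the IFNγ shares 0.561%, 0.530% and 0.531%. These sums are dominated by Fn1 and Vim and are not length-corrected.

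Promoter sequence was searched for the motifs of 3 factor families known to include targets of the COP1 ligase: the AP-1 motif TGANTCA, the C/EBP motif TTGCNNAA and the ETS motif CCGGAAGT, each on both strands, so that a reverse complement counts as a match. RefSeq windows of GRCm38.p6 from 250 bases before to 50 bases from the start matched 27 of the 40 genes, with 37 windows, of 32851 in the table. AP-1 stood in 2 of these 37 windows (7.81% of all windows), C/EBP in 3 (10.8%) and ETS in 0 (3.89%). The windows with a match belonged to 2, 3 and 0 genes. The matches are all shown, and fall in Col6a1, Postn, Col6a2 and the EMT factor Zeb2. Each stretch of 30 bases runs 5′ to 3′ along the gene's strand, with the motif in capitals.
Col6a1 AP-1, chr10:76726117-76726146, minus strand: atgctgatgctgTGACTCActcagctttga
Postn C/EBP, chr3:54360868-54360897, plus strand: gaatcagctctTTTCGCAAtgtaaacctat
Col6a2 C/EBP, chr10:76623657-76623686, minus strand: gaggagggagcTTGAGCAAaggtctgggag
Zeb2 AP-1, chr2:45110449-45110478, minus strand: tccgcctagcctTGAGTCAagcagtcttac
Zeb2 AP-1, chr2:45110392-45110421, minus strand: ggtcaggagttaTGACTCAttttgaagatg
Zeb2 C/EBP, chr2:45117645-45117674, minus strand: gggaaatgagaTTGCAAAAgaaatatagaa
Counted from the RefSeq start of its window, the Col6a1 match lies 90 bases before the start, that of Postn 228 and that of Col6a2 45. RefSeq starts can differ from the GENCODE bounds given above. By GENCODE, Col6a1 begins at 76726168 and Zeb2 at 45117395, both on the minus strand. The Col6a1 stretch and both Zeb2 AP-1 stretches thus lie inside the GENCODE bounds of their genes. A match is a run of letters in the reference and not a measured binding site. Fn1, Thbs1 and Col12a1 had no window in the table.

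Other matrix and EMT genes were also counted. Of 65 further genes of these kinds, 40 were tested, and Cop1 loss in vehicle called 17, 8 higher and 9 lower, with a median of -0.05. This is 42.5% of the list, beside 35.8% of all genes. The largest called increases were Lama4, a laminin chain, at 1.48, Loxl3, a lysyl oxidase, at 0.35 and Sdc1, a syndecan, at 0.20. The largest called decreases were Ltbp2, a latent TGF-β binding protein family gene, at -0.55, the type IV chain Col4a5 at -0.34 and Ltbp1 at -0.31. Under IFNγ Cop1 loss called 20, 10 in each direction, with a median of -0.01, which is 50% beside 40.6% of all genes. Of the called genes, Lama4 at 1.51, Tgfbi, a TGF-β-induced adhesion protein gene, at 1.13 and Loxl3 at 0.39 led the increases, and Thbs3, a thrombospondin, at -1.16, Ltbp2 at -0.43 and Col4a5 at -0.23 the decreases.

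IFNγ called 23 of those 40 genes in Rosa26 cells, 4 higher and 19 lower (median -0.21), and 23 in Cop1-targeted cells, 5 higher and 18 lower (median -0.08). Each is 57.5% of the list, beside 32.8% and 34.2% of all genes. In Rosa26 cells P4ha3, a prolyl hydroxylase (19 and 28 counts without and 3 and 3 with IFNγ), the fibrillar collagen Col27a1 at -1.39 and Col4a5 at -0.70 fell most among the called genes, and the lysyl hydroxylase Plod3 at 0.35 and the lysyl oxidase Loxl4 at 0.26 were among the increases. In Cop1-targeted cells Nid1, which links laminin to type IV collagen, at -0.94 and Col4a5 at -0.59 were among the decreases, and Plod3 at 0.23 and Col8a1 at 0.21 rose. Lama4, Tgfbi, Thbs3, P4ha3, Col27a1 and Nid1 stayed below 3 CPM in every library. Col6a3, the third main chain of type VI collagen, moved opposite to Col6a1 with IFNγ. It had 2 and 0 counts in Rosa26 vehicle libraries and 39 and 35 with IFNγ. Its counts went from 3 and 0 to 29 and 32 under Cop1_sgRNA1 and from 5 and 3 to 49 and 32 under Cop1_sgRNA2. The treated libraries were above the untreated ones in all 3 populations (adjusted p = 7.56e-07 in Rosa26 and 3.1e-09 in Cop1-targeted cells).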

How the data were processed

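Total RNA of the 12 libraries was sequenced after Illumina TruSeq preparation, per the labels' protocols. The authors deposited whole-number gene counts; the submitters' processing notes name mm10, STAR 2.4.0, HTSeq and DESeq2 1.10, and the strand setting is not given in the sources used here. Counts were scaled by TMM and tested with edgeR 4.0.16 (R 4.3.3), quasi-likelihood test with robust fit, 1 mean per group over all 12 libraries, Benjamini-Hochberg adjustment over 11904 genes and a threshold of 0.05. The count filter was a minimum of 10 counts with a total of 15. CPM use TMM-scaled totals. The effect of Cop1 loss averages both guides, set against Rosa26. The script was tested on simulated data. Total rows were left out; each equalled the gene sum except in Cop1_sgRNA1 vehicle replicate 1, where it was 360 higher.

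The genes, lists and motifs were chosen with earlier results of these data known. Library values are given for Cop1, for the 6 called genes with the largest change in each comparison (mean log2 CPM of at least 1), and for Vim, Fn1, Col1a1, Zeb1 and Snai1. Of the other matrix list, the 3 largest increases and decreases are named, except 1 result that is not reported here. Within groups, the chi-square per degree of freedom between libraries was 2.33 to 4.21, above sampling noise, so no library was a copy of another. Alternatives were RLE scaling, DESeq2 1.42.0, no count filter, the compared groups alone, each guide alone, a replicate block, each library left out, and summed populations. Positions are from GENCODE M21 (GRCm38) and promoter windows from RefSeq (GRCm38.p6). The limit of 3 counts covers counting error only. The standard errors come from the quasi-likelihood test, which includes the spread between libraries.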

Additional observations from a re-analysis of the deposited data

Results flagged for a closer look

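The response to IFNγ was called different between Cop1-targeted and Rosa26 cells for 3 genes, by the interaction term of edgeR's quasi-likelihood test. The difference in log2 response was 0.46 for Thbs1, -0.21 for Lamb3 and 0.16 for Col18a1. The Col18a1 call was lost in DESeq2 (adjusted p = 0.0770) and with Cop1_sgRNA2 alone (edgeR, adjusted p = 0.265). It was also lost on leaving out any of several libraries (edgeR, adjusted p up to 0.330). Thbs1 is the clearest of them: with IFNγ it rose by 0.56 in Cop1-targeted cells and by 0.10 in Rosa26 cells.

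The 2 guides against Cop1 differed from each other for 5 genes in vehicle. With Cop1_sgRNA2 relative to Cop1_sgRNA1, Col7a1 differed by 0.30, Thbs1 by 0.27, Col18a1 by -0.23, Plod2 by -0.17 and Col4a1 by -0.11 on the log2 scale. Of these, Thbs1 and Col18a1 were called whichever library was left out. Col7a1 lost its call without Cop1_sgRNA1 vehicle replicate 1 (adjusted p = 0.264) and without Cop1_sgRNA2 vehicle replicate 2 (0.0751), Col4a1 without Cop1_sgRNA1 vehicle replicate 2 (0.337) or Cop1_sgRNA2 vehicle replicate 1 (0.349), and Plod2 without any of 3 libraries (0.0571 to 0.0910).

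With IFNγ the guides differed for 6 genes. Timp1 differed by -0.34, Col18a1 by -0.32, Sparc by -0.25, Thbs1 by 0.23, Plod2 by -0.14 and Col4a2 by -0.12. The calls of Col18a1, Sparc and Thbs1 held whichever library was left out. Timp1 lost its call without Cop1_sgRNA1 IFNγ replicate 1 (adjusted p = 0.0867) or Cop1_sgRNA2 IFNγ replicate 1 (0.104). Plod2 lost it without Cop1_sgRNA1 IFNγ replicate 1 or 2 or Cop1_sgRNA2 IFNγ replicate 2 (adjusted p between 0.0596 and 0.286), and Col4a2 without Cop1_sgRNA1 IFNγ replicate 2 or either Cop1_sgRNA2 IFNγ library (between 0.0867 and 0.339).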

How the results depend on the processing

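None of the called genes among the 30 changed direction under an alternative that was run. The number of the 30 genes called for Cop1 loss in vehicle, Cop1 loss with IFNγ, IFNγ in Rosa26 cells, IFNγ in Cop1-targeted cells, the interaction, and the guide difference in vehicle and with IFNγ was 20, 16, 20, 20, 3, 5 and 6. DESeq2 called 18, 14, 18, 18, 2, 4 and 4. Leaving out each library in turn gave 14 to 20, 12 to 16, 16 to 19, 17 to 21, 2 to 5, 3 to 4 and 4 in that order. Over all genes, the first 4 comparisons called 4258, 4828, 3900 and 4073, DESeq2 called 3367, 3889, 3044 and 3301, and leaving out a library gave 2919 to 4120, 3612 to 4450, 2960 to 3051 and 3505 to 3855. With no count filter the interaction gave 5, and 764 of 16440 genes in all. The guide difference in vehicle gave 3 without Cop1_sgRNA1 vehicle replicate 2 or Cop1_sgRNA2 vehicle replicate 2. With the libraries of each population summed, so that fewer samples entered, the counts were 7, 5 and 11 for Cop1 loss in vehicle, Cop1 loss with IFNγ and IFNγ in Cop1-targeted cells, and 0 for the interaction. Over all genes that fit called 865, 1397, 1364 and 0, against 4258, 4828, 4073 and 683 in edgeR with the libraries kept apart. For the interaction and the guide differences DESeq2 called 437, 457 and 740 of all genes, against 683, 713 and 1120, and leaving out a library gave 348 to 733, 349 to 686 and 422 to 732. Cop1_sgRNA1 alone gave 416 genes for the interaction, and the compared groups alone 464 for the guide difference in vehicle. The summed fit had no guide term and left Rosa26 without replicates. The cause of the differences in counts was not tested. Calls that held under every alternative run were 6 of 20, 5 of 16, 16 of 20, 11 of 20, 0 of 3, 2 of 5 and 3 of 6, over 14, 14, 9, 16, 19, 9 and 9 alternatives. IFNγ in Rosa26 cells and the guide differences had no summed and no single-guide fit, so these tallies are not comparable. For IFNγ in Cop1-targeted cells, the calls of Col5a1, Lamb3, Tnc and Twist1 were lost without 1 or more libraries, with adjusted p up to 0.0713, 0.0666, 0.104 and 0.195.

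A fit with the replicate number as a block called 20, 16, 20, 21, 4, 5 and 7. Of all 11904 genes it called 4292, 4862, 3926, 4115, 693, 729 and 1162 in the same order. Deviations of same-numbered libraries correlated between -0.0298 and 0.0446 over 15 pairs of groups, none over 0.1, so the numbers were not taken to pair the libraries. Depth limits the 11 near-silent genes and the 5 that peaked between 1 and 2 CPM.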

Other observations

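For 3 of the 5 genes called between the guides in vehicle, the difference from Rosa26 was larger with Cop1_sgRNA1, the guide with more Cop1 RNA left. In vehicle, Cop1 was at 59.1 and 63.1 CPM with Cop1_sgRNA1 and 34.5 and 34.7 CPM with Cop1_sgRNA2. Thbs1 differed from Rosa26 by -0.94 ± 0.03 and -0.67 ± 0.03 in that order, Col7a1 by -0.58 ± 0.07 and -0.28 ± 0.07, and Col18a1 by 0.31 ± 0.04 and 0.08 ± 0.04 on the log2 scale. The other 2 genes had the opposite order, Col4a1 with -0.16 ± 0.03 and -0.27 ± 0.03 and Plod2 with -0.01 ± 0.04 and -0.18 ± 0.04. The median over the 30 tested genes was -0.18 with Cop1_sgRNA1 and -0.24 with Cop1_sgRNA2. Fn1 differed by -0.61 ± 0.05 and -0.73 ± 0.05, and the test between the guides did not call it (edgeR, adjusted p = 0.267).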
